A study of Homo sapiens with 39 samples.

Results

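LAT2 and 6 other adaptors or scaffolds of lymphocyte signalling were followed through all 39 libraries of the study. These 7 genes of the 15808 in the table of raw counts were found by Ensembl ID: LAT2, SASH3, BLNK, DAPP1, PIK3AP1, BANK1 and CBLB. LAT2 and SASH3 were picked from these data by their fall with both bromodomain inhibitors, so their changes against DMSO are given as a description with no test. The other 5 were listed for what they do. RNA had been sequenced from 4 established human B cell lymphoma lines after 6 h of treatment, in 13 groups of 3 libraries. In each of DOHH2, OCILy10, TMD8 and Toledo, 1 group received NEO2734, an inhibitor of the bromodomains of the BET proteins and of CBP and p300, 1 received OTX015 (birabresib), an inhibitor of the BET bromodomains, and 1 received the vehicle DMSO. In OCILy10, 1 further group received CB103, which blocks the transcription complex of Notch. The treatment text that all samples share names other agents and a longer time, so each sample's own label was followed. DOHH2 and Toledo are known as lines of the germinal centre type of B cell lymphoma, OCILy10 and TMD8 as lines of the activated B cell type. The labels gave no doses and did not state whether replicates had been cultured separately. The p-values then measure only the spread between these libraries, which may be technical.

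When a B cell meets antigen, its receptor is phosphorylated by the kinase LYN and recruits the kinase SYK. Adaptor proteins, most of which have no enzyme activity of their own, then hold the enzymes of the cascade together. BLNK (SLP-65) is the scaffold that joins SYK to BTK and phospholipase C gamma and is needed for calcium entry. LAT2 (also called NTAL or LAB) is a membrane adaptor that is phosphorylated after receptor engagement and binds GRB2. SASH3 (SLY1) carries SH3 and SAM domains and is found mainly in lymphocytes. PIK3AP1 (BCAP) brings PI3 kinase to the membrane, and DAPP1 (BAM32) binds the lipids that PI3 kinase makes. BANK1 is a scaffold with ankyrin repeats that binds LYN. CBLB differs from the others in that it is a ubiquitin ligase, and it limits signalling from antigen receptors. BET proteins read acetylated histones at enhancers and promoters, where CBP and p300 are among the enzymes that place the acetyl marks.

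All 7 genes are annotated as protein coding on GRCh38, with spans here from the GENCODE 29 annotation. LAT2 (ENSG00000086730.15, chr7:74199652-74229834, plus strand) and SASH3 (ENSG00000122122.9, chrX:129779979-129795201, plus strand) lie on different chromosomes. BLNK (ENSG00000095585.15, chr10:96191702-96271587, minus strand) and PIK3AP1 (ENSG00000155629.13, chr10:96593312-96720514, minus strand) lie on the same arm of chromosome 10, and DAPP1 (ENSG00000070190.11, chr4:99816833-99870154, plus strand) and BANK1 (ENSG00000153064.10, chr4:101411286-102074812, plus strand) both lie on chromosome 4. CBLB was read as ENSG00000114423.17, chr3:105655461-105869552, minus strand. SASH3 shares 118 exon bases, 4.35% of its exons, with the noncoding gene AL023653.1 on the same strand, and BLNK shares 355 bases, 9.71%, with ZNF518A on the opposite strand. Whether the counting used strand is not given in the sources used here, so reads in those stretches cannot be assigned with certainty.

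The promoters are shown because the compounds act on proteins bound at promoters and enhancers, and because SASH3, BLNK and PIK3AP1 stood lower with NEO2734 in the mean of the lines while DAPP1 did not pass the test. The RefSeq promoter table for GRCh38.p14 matched 6 of the 7 genes, all but LAT2, and held exactly 1 window of 300 bases, from 250 before to 50 after the annotated start, for the 4 printed here. BANK1 had 2 windows and CBLB 5. The windows are chrX:129779699-129779998 on the plus strand for SASH3, chr10:96271520-96271819 on the minus strand for BLNK, chr4:99816577-99816876 on the plus strand for DAPP1 and chr10:96720465-96720764 on the minus strand for PIK3AP1, each written in the direction of transcription. Capitals mark matches, on either strand, to 5 short motifs. The first is AGGAAG, called the ETS motif here because factors of the ETS family bind such letters. The second, called the E-box, is CACGTG. The third, known as the GC box, is written GGGCGG. The others are the TATA box, searched as TATAAA, and the CCAAT box, searched by the letters of its name.
SASH3: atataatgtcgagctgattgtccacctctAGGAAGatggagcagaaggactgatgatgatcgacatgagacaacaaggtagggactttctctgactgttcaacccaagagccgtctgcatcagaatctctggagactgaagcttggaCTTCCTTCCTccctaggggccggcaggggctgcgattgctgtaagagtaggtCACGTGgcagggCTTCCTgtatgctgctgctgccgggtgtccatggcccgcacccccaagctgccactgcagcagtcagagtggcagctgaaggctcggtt
BLNK: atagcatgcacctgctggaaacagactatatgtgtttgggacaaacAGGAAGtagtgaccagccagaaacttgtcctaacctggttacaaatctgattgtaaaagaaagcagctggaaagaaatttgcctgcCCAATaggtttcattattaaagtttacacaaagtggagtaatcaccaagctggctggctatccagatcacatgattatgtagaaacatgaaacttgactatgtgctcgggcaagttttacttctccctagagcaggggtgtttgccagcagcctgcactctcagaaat
DAPP1: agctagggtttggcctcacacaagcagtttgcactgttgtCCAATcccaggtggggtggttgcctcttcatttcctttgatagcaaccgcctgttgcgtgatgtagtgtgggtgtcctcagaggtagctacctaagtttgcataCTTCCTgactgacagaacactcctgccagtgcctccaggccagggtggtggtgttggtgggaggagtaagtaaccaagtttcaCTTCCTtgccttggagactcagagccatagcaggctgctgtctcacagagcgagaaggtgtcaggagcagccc
PIK3AP1: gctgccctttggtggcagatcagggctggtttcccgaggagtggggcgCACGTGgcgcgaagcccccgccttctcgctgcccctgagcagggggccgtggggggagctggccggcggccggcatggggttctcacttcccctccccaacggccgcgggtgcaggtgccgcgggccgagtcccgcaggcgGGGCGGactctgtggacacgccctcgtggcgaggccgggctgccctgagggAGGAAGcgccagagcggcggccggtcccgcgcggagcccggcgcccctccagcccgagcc

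The SASH3 window held the ETS motif 4 times, with the matches at 103 and 99 bases before the start overlapping each other, and the E-box 51 bases before the start. The BLNK window held 1 ETS motif, 204 bases before the start, and 1 CCAAT box, 118 bases before it. The DAPP1 window held ETS motifs 106 and 23 bases before the start and a CCAAT box 210 bases before it. The PIK3AP1 window held an ETS motif 10 bases, a GC box 61 bases and an E-box 202 bases before the start. Of all 35116 promoter windows in the table, 33.6% held the ETS motif on either strand, 7.26% the E-box, 44.95% the GC box, 11.5% the TATA box and 34.6% the CCAAT box. The ETS motif was thus common among promoters in general, and it stood both in windows of genes that stood lower with NEO2734 and in that of DAPP1. A match to letters does not show that a factor was bound.

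Library totals ran from 1000281 to 11668542 counts, with 15 deep libraries of at least 6670250 counts and 24 shallow ones of at most 3420458, and both kinds were present in all 13 groups. The deep libraries alone left most groups with 1 library, and the shallow ones left 1 in OCILy10 with DMSO and with NEO2734. A fit to the deep libraries alone thus rested on few replicates, and a call made or missed there is weak. Levels are CPM, counts scaled to a common library size after TMM normalisation. The B cell markers MS4A1, CD79A, CD79B, PAX5 and CD22 were detected in all 39 libraries. By genes private to 1 line, 3 libraries went against their labels. The library labelled Toledo DMSO replicate 2 held the genes private to OCILy10 at a median of 72.2% of their level in OCILy10 and those of Toledo at 37%. In the library labelled OCILy10 CB103 replicate 2 the genes private to Toledo stood at 25.8%, and in the library labelled DOHH2 NEO2734 replicate 3 those private to OCILy10 stood at 10.6%. In the other 36 libraries no line's private genes exceeded 2.18% outside that line. Some results that rest on these 3 libraries are also given without them. Where no such value is stated, as for the CB103 comparison, the result rests on all libraries.

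The DMSO levels of most of the adaptors differed between lines. LAT2 and SASH3 were picked on changes against these DMSO libraries, which thus entered the choice, but not on differences between lines. In the test over the 4 DMSO groups 5 of the 7 genes differed between lines at an adjusted p under 0.05, against 48.1% of the 12814 genes tested. A gene is called here where its p from edgeR's quasi-likelihood test, adjusted over those 12814 genes, is under 0.05. The adjusted p was 2.48e-09 for LAT2, 6.60e-08 for SASH3, 0.000825 for BLNK, 3.24e-08 for BANK1 and 4.87e-08 for CBLB. It was 0.0529 for DAPP1 and 0.369 for PIK3AP1. Both missed the threshold in this fit, so their order, OCILy10, TMD8, Toledo and DOHH2 for DAPP1 and Toledo, DOHH2, TMD8 and OCILy10 for PIK3AP1, is given without neighbours told apart. DAPP1 was called with DESeq2 (adjusted p = 0.0456), no filter on low counts (0.0457), limma-voom (0.0289), the replicate block (0.0014) and depth class as a covariate (0.00264). DAPP1 was also called in 8 of the 39 fits that left out 1 library. PIK3AP1 was called with the depth covariate (adjusted p = 0.0299).

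Set per kilobase of exon, so that genes can be compared, the highest DMSO level of any of the 7 was that of BLNK in OCILy10, at 108 CPM per kb. SASH3 followed with 80.2 in Toledo and 77.8 in DOHH2, and LAT2 reached 61.2 in DOHH2. PIK3AP1 stood between 26.2 and 47.2 CPM per kb in the 4 lines and DAPP1 between 12.4 and 24.4. CBLB was low, between 0.893 and 5.23 CPM per kb. Not all of these ranks are firm, since the SD between libraries reached 30.2 CPM per kb for BLNK in Toledo.

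**Figure D1:**
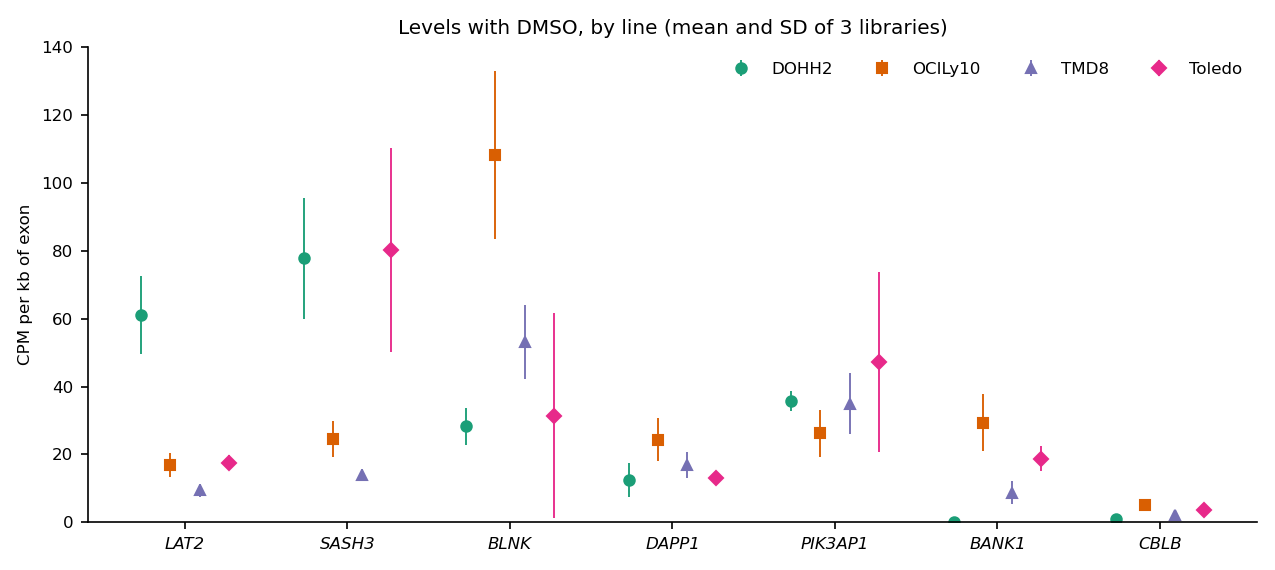
Level of each of the 7 adaptor genes with DMSO, in CPM per kb of exon, as the mean of 3 libraries with its SD, by line. LAT2 and SASH3 were high in DOHH2 and low in TMD8, BLNK was highest in OCILy10 at 108 CPM per kb, and BANK1 was at 0 in DOHH2.

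LAT2 was highest in DOHH2, at 278 ± 52.4 CPM (SD, n = 3), followed by Toledo at 80.1 ± 10.5, OCILy10 at 76.6 ± 16.4 and TMD8 at 42.996 ± 8.45. DOHH2 exceeded its neighbour Toledo by 1.80 ± 0.25 on the log2 scale (± SE; adjusted p = 4.00e-06; 23.5% of all genes were called between these lines). OCILy10 and Toledo differed by less than their spread (-0.062 ± 0.24, adjusted p = 0.92; 15.9% of genes called). OCILy10 exceeded TMD8 by 0.82 ± 0.25 (adjusted p = 0.015; 20.8% called), a call that was lost when OCILy10 DMSO replicate 3 or TMD8 DMSO replicate 2 was left out. That difference was 0.50 in the deep libraries alone. With all libraries the order for LAT2 was therefore DOHH2, then Toledo and OCILy10 together, then TMD8.

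SASH3 had 217 ± 81.7 CPM in Toledo and 211 ± 48.3 CPM in DOHH2, which were not told apart (-0.043 ± 0.28, adjusted p = 0.956), then 66.6 ± 14.6 in OCILy10 and 38.04 ± 4.50 in TMD8. DOHH2 exceeded OCILy10 by 1.67 ± 0.29 (adjusted p = 6.63e-05; 30.1% of genes called between these lines). OCILy10 exceeded TMD8 by 0.81 ± 0.29 at an adjusted p of 0.047, which was lost in 19 of the 39 fits that left out 1 library. It was also lost with the replicate block (adjusted p = 0.079), no filter on low counts (0.0536) and the other deposited table (0.0927). The difference was 0.84 in the deep and 0.99 in the shallow libraries alone. Both picked genes thus shared a low level in TMD8, while Toledo ranked with DOHH2 for SASH3 and with OCILy10 for LAT2.

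BLNK, the central scaffold of the pathway, was highest in OCILy10, at 395 ± 90.5 CPM, followed by TMD8 at 194 ± 40.3. The difference of OCILy10 from TMD8 was 1.03 ± 0.43 (adjusted p = 0.0896), and 0.0223 without the 3 libraries named above. DOHH2 minus OCILy10 was -1.93 ± 0.44 (adjusted p = 0.00103). Toledo, at 115 ± 110.4 CPM, was told apart neither from TMD8 (TMD8 minus Toledo 0.74 ± 0.43, adjusted p = 0.223, but 0.000774 without the mixed libraries) nor from DOHH2, at 103 ± 19.95 CPM (adjusted p = 0.862).

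BANK1 was at 181 ± 51.03 CPM in OCILy10, 115 ± 23.03 in Toledo and 53.9 ± 20.3 in TMD8. OCILy10 and Toledo were not told apart (adjusted p = 0.477), nor, with all libraries in edgeR, were TMD8 and Toledo (TMD8 minus Toledo -1.12, adjusted p = 0.144). That second difference was called at -2.01 with the replicate block (adjusted p = 0.004), with limma-voom (0.0189) and with the depth covariate (0.0413). In the deep libraries alone it was -2.03. BANK1 had 0 counts in all 3 DOHH2 DMSO libraries. Set against a floor of 3 counts over that group, BANK1 was at least 642-fold lower in DOHH2 than in OCILy10, at least 506-fold lower than in Toledo and at least 165-fold lower than in TMD8, limits that cover counting error only.

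CBLB, the inhibitory ubiquitin ligase, was also lowest in DOHH2, at 10.95 ± 2.002 CPM, against 25.7 ± 4.83 in TMD8, 45.96 ± 9.72 in Toledo and 64.1 ± 5.83 in OCILy10. Its difference of DOHH2 from TMD8 was -1.19 ± 0.26 (adjusted p = 0.00062; 28.5% of genes called) and that of TMD8 from Toledo -0.86 ± 0.25 (adjusted p = 0.0105; 24.9% called), the second being 0.076 without the 3 mixed libraries. OCILy10 and Toledo did not pass (0.47 ± 0.24, adjusted p = 0.2). In the deep libraries alone DOHH2 minus TMD8 was -0.72. TMD8 minus Toledo was -1.01 in the deep libraries and -0.71 in the shallow ones, where it was not called. DOHH2 therefore combined the highest LAT2 with no BANK1 counts and the lowest CBLB.

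LAT2 stood lower with both inhibitors in every line, at 0.264 of its DMSO level with NEO2734. In DOHH2 it stood at 74.7, 67.8 and 70.6 CPM with NEO2734 and 107, 102 and 104 CPM with OTX015, against 219, 319.9 and 295 CPM with DMSO. In OCILy10 it stood at 26.5, 22.5 and 17.5 CPM with NEO2734 and 32.5, 16.6 and 23.2 with OTX015, against 75.9, 60.6 and 93.4 with DMSO. In both lines every treated library lay below every DMSO library, and in DOHH2 the NEO2734 libraries also lay below those with OTX015. In TMD8 the values were 10.2, 13.6 and 11.5 CPM with NEO2734 and 17.3, 11.5 and 13.2 with OTX015, against 47.7, 33.2 and 48.1 with DMSO. In Toledo they were 22.9, 14.6 and 19.9 CPM with NEO2734 and 39.2, 23.5 and 21.7 with OTX015, against 75.1, 72.9 and 92.1 with DMSO. Here too no treated library reached the DMSO range, while the NEO2734 and OTX015 libraries overlapped.

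The log2 change of LAT2 with NEO2734 was -1.97 ± 0.25 in DOHH2, -1.77 ± 0.25 in OCILy10, -1.88 ± 0.26 in TMD8 and -2.05 ± 0.26 in Toledo (± SE), with a mean of -1.92 ± 0.13. With OTX015 it was -1.41 ± 0.25, -1.63 ± 0.25, -1.59 ± 0.26 and -1.48 ± 0.25 in the same lines, with a mean of -1.53 ± 0.13. With all libraries the 4 lines thus lay close together with each compound, although LAT2 with DMSO was 6.44-fold higher in DOHH2 than in TMD8. Single lines moved with depth. With NEO2734 the change was -1.58 in DOHH2 and -2.23 in TMD8 in the deep libraries alone, and -2.39 in OCILy10 in the shallow ones. With OTX015 it was -1.05 in DOHH2, -1.10 in OCILy10 and -0.94 in Toledo in the deep libraries. In the shallow ones it was -2.21 in OCILy10 and -1.92 in Toledo. The other lines moved by no more than the SD between libraries. Without the mixed libraries the change was -1.95 with NEO2734 in DOHH2, and -2.11 with NEO2734 and -1.59 with OTX015 in Toledo. These changes chose the gene, so no p is attached to them. In these bulk libraries fewer cells that carry a transcript and less of it per cell cannot be told apart.

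**Figure D2:**
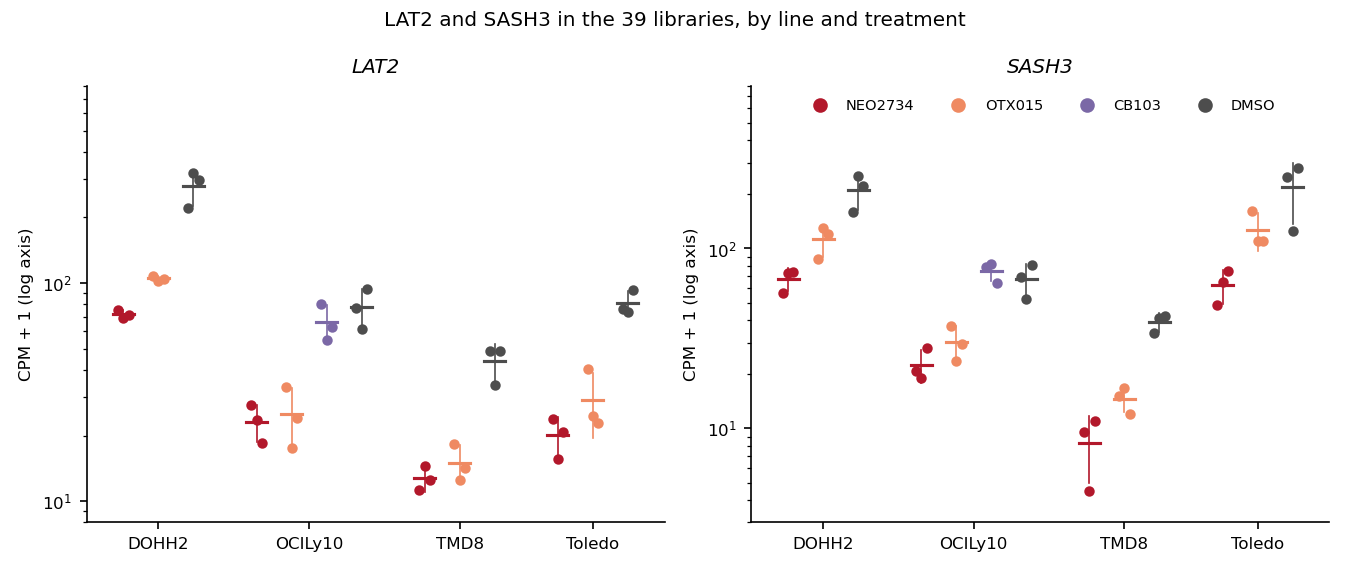
LAT2 and SASH3 in each library, as CPM + 1 on a log axis, by line and treatment. Points are libraries, horizontal bars the mean and vertical bars the SD of 3 libraries. All NEO2734 libraries of a line lie below its DMSO libraries for both genes, and the CB103 libraries of OCILy10 overlap its DMSO libraries.

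SASH3 stood lower with NEO2734 in every line, and less so with OTX015. In DOHH2 it stood at 55.9, 72.2 and 72.7 CPM with NEO2734 and 86.3, 128 and 119 with OTX015, against 158, 252 and 222 with DMSO. In OCILy10 the values were 19.9, 17.98 and 26.9 CPM with NEO2734 and 36.1, 22.6 and 28.6 with OTX015, against 68.1, 51.3 and 80.3 with DMSO. The DOHH2 libraries fell into 3 separate steps, NEO2734 lowest, then OTX015, then DMSO, whereas in OCILy10 the compounds overlapped below the DMSO libraries. In TMD8 the values were 8.53, 3.50 and 9.94 CPM with NEO2734 and 14.1, 15.8 and 11.1 with OTX015, against 32.9, 39.9 and 41.3 with DMSO. In Toledo they were 47.2, 64.2 and 73.6 CPM with NEO2734 and 161, 108 and 109.5 with OTX015, against 248, 125 and 279 with DMSO. Toledo was the one line in which OTX015 overlapped DMSO, and the DMSO library inside the overlap, replicate 2, is the one with OCILy10 genes.

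The log2 change of SASH3 with NEO2734 was -1.66 ± 0.29 in DOHH2, -1.63 ± 0.30 in OCILy10, -2.37 ± 0.32 in TMD8 and -1.81 ± 0.29 in Toledo, with a mean of -1.87 ± 0.15, or 0.274 of the DMSO level. With OTX015 it was -0.92 ± 0.29, -1.17 ± 0.30, -1.47 ± 0.31 and -0.78 ± 0.29 in the same lines, with a mean of -1.09 ± 0.15, or 0.471 of the DMSO level. In Toledo the change with OTX015 was -1.10 without the mixed libraries. With all libraries TMD8, the line with the lowest SASH3, had the largest change with either compound, but this rank is not firm. The TMD8 NEO2734 libraries held only 80, 8 and 13 SASH3 counts. In the deep libraries alone the TMD8 change with NEO2734 was -1.96. The OCILy10 change with OTX015 was -0.75 in the deep libraries and -1.63 in the shallow ones. Over the 13 group means of log2 CPM, LAT2 and SASH3 had a Pearson r of 0.81, and of 0.94 over the 12 groups with DMSO, NEO2734 or OTX015 after each line's mean was taken out. Both genes were picked for falling, so this r describes the choice, and the groups share libraries and scaling factors.

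In OCILy10 the summed level of T cell markers was lower with both inhibitors than with DMSO. Of 8 listed, 4 were read (CD247, TRAC, CD2, CD4). The others, CD3D, CD3E, CD3G and CD8A, were absent from the deposited counts. The sum was 2.85 to 6.82 CPM with NEO2734, 4.31 to 8.96 with OTX015, 27.8 to 58.5 with CB103 and 32.6 to 80.6 with DMSO in OCILy10. In DOHH2 the sum was 0.622 to 1.06 CPM with NEO2734, 0.615 to 1.12 with OTX015 and 3.09 to 5.44 with DMSO. In TMD8 it was 5.25 to 6.12, 2.15 to 5.57 and 4.86 to 11.1 CPM in the same order, and in Toledo 0.468 to 1.54, 0 to 2.27 and 0 to 40.4, where the mixed library gave the highest DMSO value. The part of these markers in the LAT2 and SASH3 values was not tested. Of 7 monocyte and macrophage markers, LYZ and CSF1R were read, and their sum was at most 4.79 CPM in any library. The others, among them CD14, were absent from the deposited counts.

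Set directly against each other at doses the labels do not give, the level with NEO2734 was lower than with OTX015 for SASH3, and no difference passed for the other 6 genes. LAT2 and SASH3 were picked by their fall in the same treated libraries, so their differences between the compounds are not independent of that choice. In the mean of the 4 lines the NEO2734 minus OTX015 difference of SASH3 was -0.78 ± 0.15 on the log2 scale (95% interval -1.09 to -0.47; adjusted p = 0.0487), and it was 1 of 4 genes called of 12814 (0.0312%). The difference was -0.73 ± 0.29 in DOHH2, -0.46 ± 0.30 in OCILy10, -0.90 ± 0.33 in TMD8 and -1.04 ± 0.29 in Toledo. The groups stood apart in DOHH2, TMD8 and Toledo and overlapped in OCILy10. How many of all genes stood apart between the compounds was not counted. The call sat at the threshold. It was lost in 34 of the 39 fits that left out 1 library, with values from -0.83 to -0.70, and its adjusted p was 0.0584 without the 3 mixed libraries.

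For LAT2 the difference between the compounds was -0.39 ± 0.13 (95% interval -0.65 to -0.13, adjusted p = 0.861), a lower level with NEO2734 that did not pass. The intervals for the rest were -0.60 to 0.28 for BLNK, -0.43 to 0.27 for DAPP1, -0.61 to 0.24 for PIK3AP1 and -0.13 to 0.37 for CBLB, each with an adjusted p of 1. For BANK1, over the 3 lines that express it, the interval was -0.94 to 0.37 (adjusted p = 1). No gene was called between the compounds over those 3 lines with edgeR (0% of 12814), 297 had an unadjusted p under 0.05, DESeq2 called 3 and limma-voom 0. Differences inside these intervals are not excluded.

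Of the 5 genes not picked for their fall, 3 were called lower with NEO2734, BLNK, PIK3AP1 and BANK1, and 1 was called higher, CBLB. Among all 12814 genes 11.2% were called lower and 9.29% higher in the mean of the 4 lines. With OTX015, BLNK and BANK1 were called lower and CBLB higher, against 6.06% and 5.53% of all genes. BANK1 was averaged, by a choice made after its values were seen, over OCILy10, TMD8 and Toledo, since it had no counts in DOHH2 with DMSO, and 16.4% of genes were called there with NEO2734 and 9.22% with OTX015. The comparisons of NEO2734 and of OTX015 share their DMSO libraries.

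**Figure D3:**
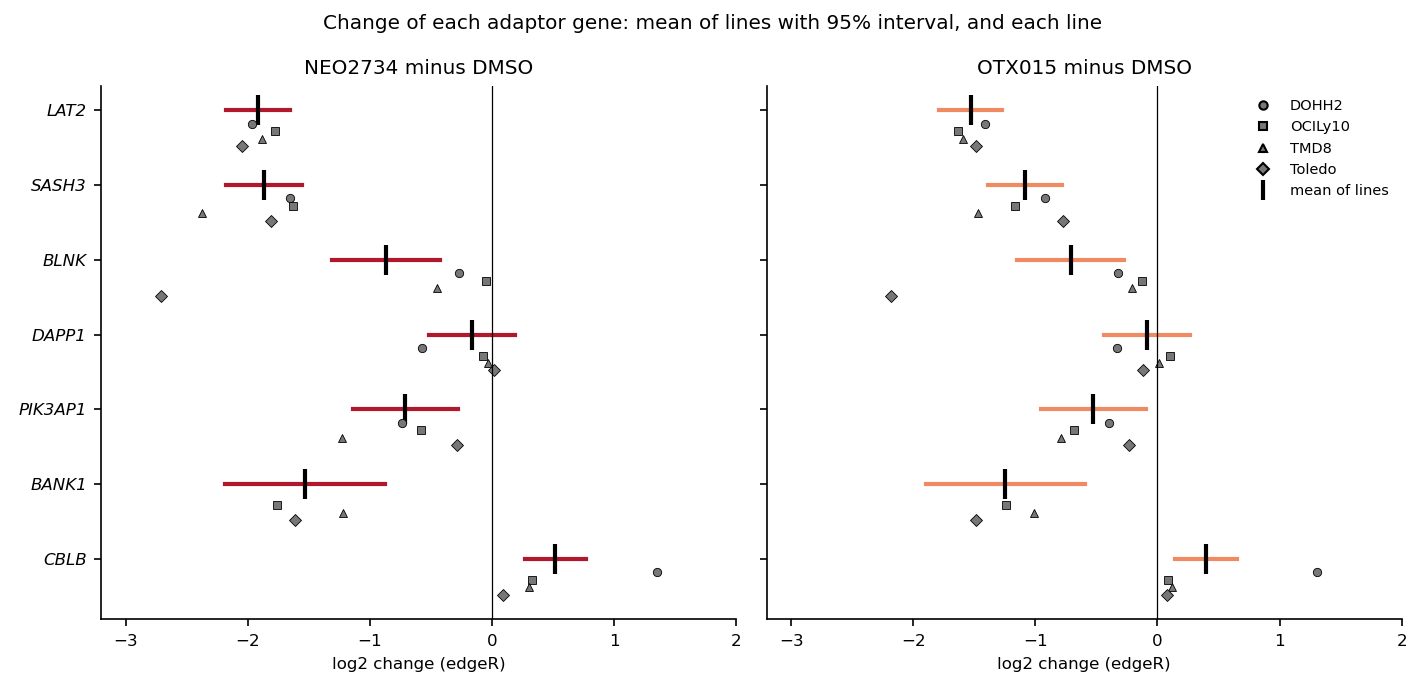
Log2 change of each adaptor gene against DMSO with NEO2734 and with OTX015. Black marks with coloured bars are the mean of lines and its 95% interval, and grey symbols below them are the single lines, without DOHH2 for BANK1. LAT2 and SASH3 lie below 0 in all lines, and the line farthest from 0 is Toledo for BLNK and DOHH2 for CBLB.

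BLNK was called lower in the mean of lines, and Toledo was the one line with a call of its own. In Toledo it stood at 15.4, 10.1 and 26.1 CPM with NEO2734 and 34.6, 26.1 and 15.3 with OTX015, against 77.98, 239 and 27.6 with DMSO. The DMSO values are far apart, and the highest belongs to replicate 2, the library labelled Toledo that holds OCILy10 genes, the line where BLNK is highest. With all libraries the change in Toledo was -2.71 ± 0.46 with NEO2734 (adjusted p = 0.0017; 5.47% of all genes called in Toledo) and -2.18 ± 0.45 with OTX015 (adjusted p = 0.013; 3.09% called). Without the mixed libraries it was -1.62 with NEO2734 (adjusted p = 0.0434) and -1.15 with OTX015 (adjusted p = 0.37), so the size fell in both and the second call was lost.

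In the other 3 lines BLNK was not called. It stood at 82.5, 76.5 and 98.7 CPM with NEO2734 and 101, 80.9 and 65.2 with OTX015 in DOHH2, against 123, 103 and 83.4 with DMSO. In OCILy10 it stood at 439, 373 and 334 CPM with NEO2734 and 423, 329.6 and 330.4 with OTX015, against 499.6, 344 and 342 with DMSO. In TMD8 it stood at 146, 98.8 and 182 CPM with NEO2734 and 163, 145 and 197 with OTX015, against 186, 158 and 238 with DMSO. The treated and DMSO libraries overlapped in each of the 3 lines. Averaged over the 4 lines, BLNK changed by -0.87 ± 0.22 with NEO2734 (adjusted p = 0.0039) and -0.71 ± 0.21 with OTX015 (adjusted p = 0.0283). Averaged over the 3 lines without Toledo the values were -0.26 ± 0.25 with NEO2734 (adjusted p = 0.604; 14.5% of genes called) and -0.22 ± 0.25 with OTX015 (adjusted p = 0.774; 5.6% called). The difference of the BLNK response between lines did not pass with edgeR (adjusted p = 0.282 with NEO2734 and 1 with OTX015), and DESeq2 gave 0.012 with NEO2734.

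PIK3AP1, the PI3 kinase adaptor, fell by a modest amount with NEO2734. In TMD8, the line with the largest change, it stood at 106, 55.98 and 91.8 CPM with NEO2734 and 139, 73.2 and 131 with OTX015, against 219, 141 and 236 with DMSO. In DOHH2 it stood at 148, 118 and 99.7 CPM with NEO2734 and 176, 138 and 149 with OTX015, against 218, 186 and 206 with DMSO. Treated and DMSO libraries did not overlap in these 2 lines. In OCILy10 the values were 101, 123 and 74.2 CPM with NEO2734 and 124, 94.3 and 59.8 with OTX015, against 140.3, 193 and 114 with DMSO. In Toledo they were 152, 131 and 376 CPM with NEO2734 and 399, 149.6 and 138 with OTX015, against 443, 188 and 175 with DMSO, and each of the 3 Toledo groups held 1 library far above its other two. The mean change was -0.71 ± 0.21 with NEO2734 (adjusted p = 0.0149) and -0.53 ± 0.21 with OTX015 (adjusted p = 0.108). Without TMD8 the change with NEO2734 was -0.54 ± 0.24 (adjusted p = 0.142; 15.7% of genes called), without Toledo DMSO replicate 1 it was -0.54 and not called, and without Toledo OTX015 replicate 1 the change with OTX015 was -0.69 and called.

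BANK1, the LYN-binding scaffold, was lower with both compounds in the 3 lines that express it. In OCILy10 it stood at 52.1, 54.96 and 52.2 CPM with NEO2734 and 57.6, 102 and 71.2 with OTX015, against 151, 151 and 239 with DMSO. In TMD8 it stood at 17.8, 24.5 and 27.5 CPM with NEO2734 and 15.4, 23.7 and 41.6 with OTX015, against 30.97, 60.9 and 69.7 with DMSO. In Toledo the values were 30.4, 19.7 and 61.2 CPM with NEO2734 and 58.8, 36.6 and 27.3 with OTX015, against 137, 118 and 91.1 with DMSO. Only the OTX015 libraries of TMD8 overlapped those with DMSO. The mean over the 3 lines was -1.53 ± 0.32 with NEO2734 (adjusted p = 0.00131), or 0.346 of the DMSO level, and -1.25 ± 0.32 with OTX015 (adjusted p = 0.0129), or 0.422. Within single lines edgeR called no BANK1 change with all libraries, with values from -1.76 in OCILy10 to -1.22 in TMD8 for NEO2734, but these misses depended on the fit. In OCILy10 the NEO2734 change was called with DESeq2 (adjusted p = 0.0291), limma-voom (0.00946), the replicate block (0.00872), depth class as a covariate (0.0213) and the mixed libraries left out (0.0493). In Toledo it was called with DESeq2 (adjusted p = 0.0317), limma-voom (0.0471), the replicate block (0.0156), the shallow libraries alone (0.0194) and the depth covariate (0.0253), and the OTX015 change with the block (0.037), the shallow libraries (0.0442) and the depth covariate (0.0485). In DOHH2 BANK1 stayed at or near 0: the 6 counts of NEO2734 replicate 3 (3.18 CPM) were in the library that holds OCILy10 genes, and 1 count was in OTX015 replicate 2.

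**Figure D4:**
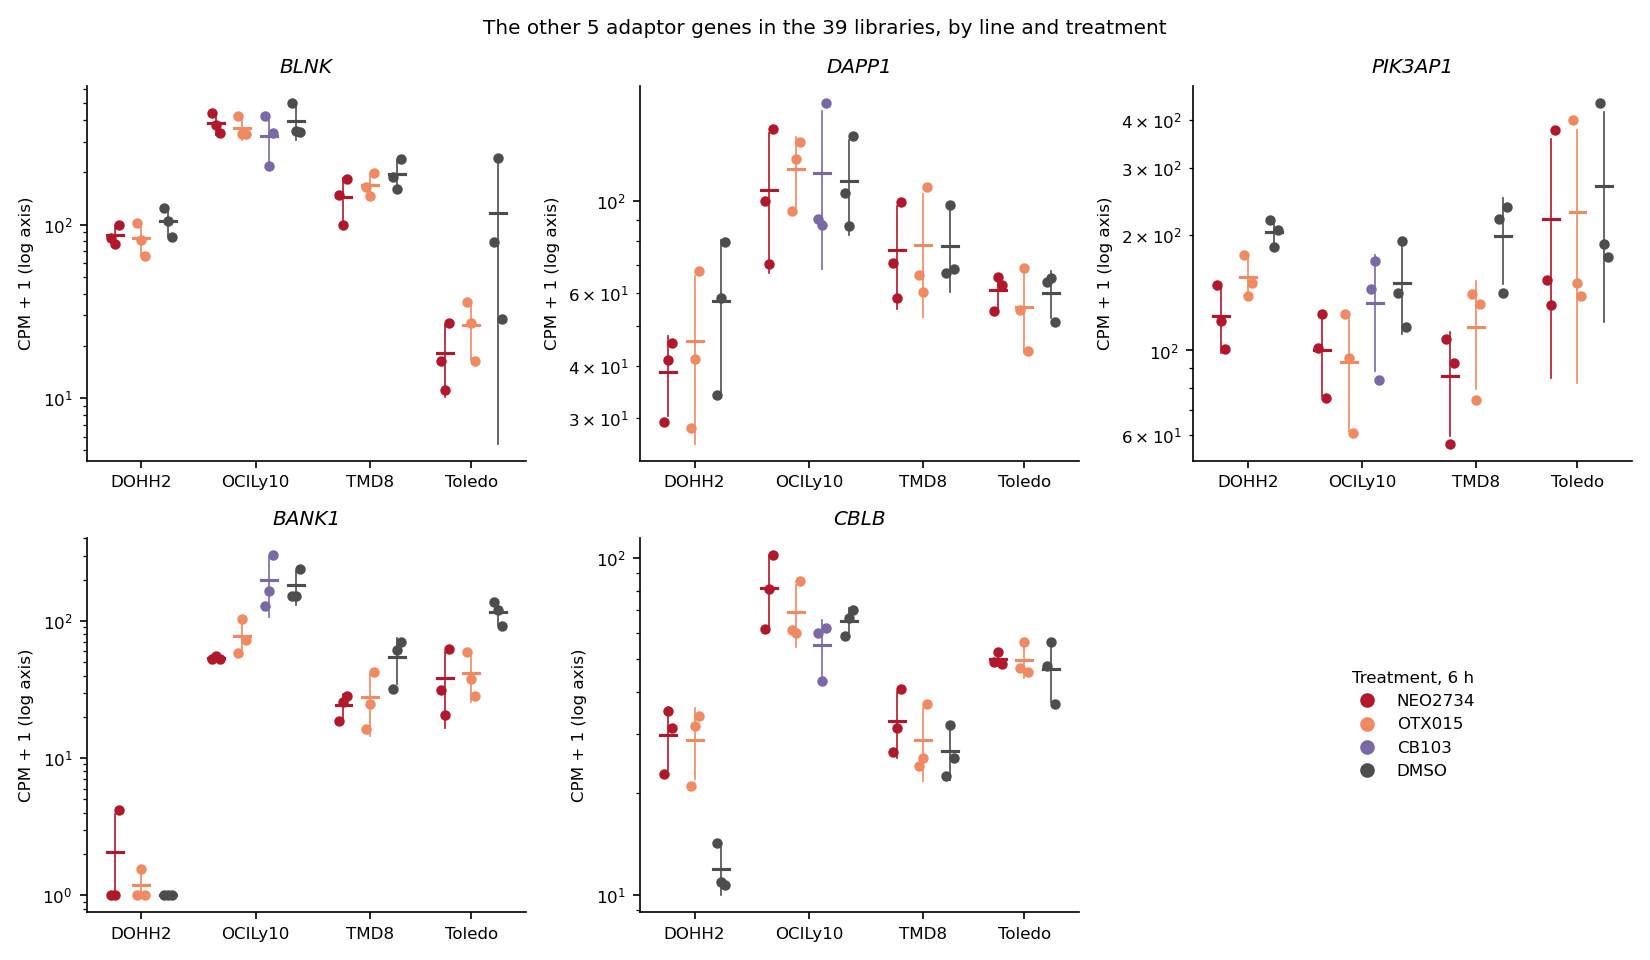
BLNK, DAPP1, PIK3AP1, BANK1 and CBLB in each library, as CPM + 1 on a log axis, by line and treatment. Points are libraries, horizontal bars the mean and vertical bars the SD of 3 libraries. The 3 Toledo DMSO libraries of BLNK run from 27.6 to 239 CPM, and CBLB in DOHH2 is higher with both inhibitors than with DMSO.

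CBLB was the one gene of the 7 called higher, and DOHH2 was the one line with a call of its own. There it stood at 21.8, 34.2 and 30.2 CPM with NEO2734 and 20.05, 30.7 and 32.97 with OTX015, against 13.3, 9.90 and 9.70 with DMSO, with no overlap between treated and DMSO libraries. How many of all genes stood apart and higher in this way was not counted. The change in DOHH2 was 1.35 ± 0.26 with NEO2734 (adjusted p = 0.00344; 2.9% of all genes called in DOHH2) and 1.31 ± 0.26 with OTX015 (adjusted p = 0.0353; 0.125% called). The OTX015 call was lost with DESeq2 size factors (adjusted p = 0.0528), limma-voom (0.219), the shallow libraries alone (0.0938), the other deposited table (0.157) and in 7 of the 39 fits that left out 1 library. Even so treated DOHH2 stayed below DMSO-treated OCILy10, at 57.8, 65.4 and 69.3 CPM. In the other lines CBLB overlapped between treatments, with 60.6, 80.2 and 101 CPM with NEO2734 in OCILy10, 25.5, 30.2 and 39.8 in TMD8 and 48.2, 51.8 and 47.6 in Toledo, against 21.6, 31.02 and 24.5 with DMSO in TMD8 and 46.9, 55.2 and 35.8 with DMSO in Toledo. With OTX015 it stood at 60.3, 58.8 and 84.6 CPM in OCILy10, 23.2, 24.4 and 35.8 in TMD8 and 46.2, 55.5 and 44.7 in Toledo. These too overlapped the DMSO libraries of their line. The mean of the 4 lines was 0.52 ± 0.12 with NEO2734 (adjusted p = 0.00274) and 0.39 ± 0.12 with OTX015 (adjusted p = 0.0344). Without DOHH2 it was 0.24 ± 0.14 with NEO2734 (adjusted p = 0.289) and 0.091 ± 0.14 with OTX015 (adjusted p = 0.807). With the deep libraries alone, 1 in each DOHH2 group, the DOHH2 change was only 0.69 with NEO2734 and 0.58 with OTX015.

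DAPP1, which binds PI3 kinase lipids, showed no detectable change. In DOHH2, the line with the largest shift, it stood at 28.3, 40.4 and 44.6 CPM with NEO2734 and 27.4, 40.7 and 66.7 with OTX015, against 32.99, 57.5 and 78.9 with DMSO. Over all lines DAPP1 ran from 28.3 to 148 CPM with NEO2734, from 27.4 to 137 with OTX015 and from 32.99 to 143 with DMSO. The groups overlapped in all 4 lines with both compounds. The mean change was -0.17 ± 0.17 with NEO2734 (95% interval -0.52 to 0.18, adjusted p = 0.601) and -0.087 ± 0.17 with OTX015 (-0.44 to 0.26, adjusted p = 0.884). A fall of the size of the lower bounds is not excluded.

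Counted by line, the 5 genes not picked for their fall gave calls with edgeR and all libraries in DOHH2 (CBLB with both compounds) and Toledo (BLNK with both). BANK1 was called in OCILy10 with NEO2734, and in Toledo, in the other fits given above. With NEO2734 it was also called on leaving out 1 library, in 1 of 39 fits for OCILy10 and 2 of 39 for Toledo. Called genes made up 1.01% of all genes in OCILy10 and 2.17% in TMD8 with NEO2734, and 0.0702% and 0.39% with OTX015. Groups that did not overlap were also counted by line. LAT2 was below DMSO with no overlap in 4 of 4 lines with each compound, and SASH3 in 4 of 4 with NEO2734 and 3 of 4 with OTX015. Both were picked for their fall, so this separation describes the choice and is not to be read against the shares of all genes. PIK3AP1 stood apart and lower in 2 of 4 lines with each compound, BLNK in 1 with NEO2734, and BANK1 in 3 of its 3 lines with NEO2734 and 2 with OTX015. Of all genes, 9.73% stood apart and lower in DOHH2 with NEO2734, 10.2% in OCILy10, 10.6% in TMD8 and 6.57% in Toledo. With OTX015 the shares were 6.52%, 6.97%, 7.9% and 4.82% in the same lines.

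Whether the response differed between lines was tested for the 5 genes not picked for their fall, leaving out BANK1 because of its empty DOHH2 groups. None passed with edgeR, but DESeq2 gave an adjusted p of 0.012 for BLNK with NEO2734. For CBLB edgeR's adjusted p was 0.411 with NEO2734 and 1 with OTX015, and it was 1 for DAPP1 and PIK3AP1 with either compound. A call within 1 line is by itself no test of a difference between lines. Across all genes 2 of 12814 (0.0156%) were called with NEO2734. With OTX015 edgeR called 0 (0%), 478 had an unadjusted p under 0.05, DESeq2 called 4 and limma-voom 0.

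With CB103, given to OCILy10 alone, no change of an adaptor was detected. LAT2 stood at 79.4, 54.02 and 61.7 CPM with CB103, against 75.9, 60.6 and 93.4 with DMSO. SASH3 stood at 77.9, 81.4 and 63.6 CPM, against 68.1, 51.3 and 80.3 with DMSO, and BLNK at 422, 216 and 335 CPM, against 499.6, 344 and 342. For all 7 genes the CB103 and DMSO libraries overlapped, including BANK1 at 128, 165 and 304 CPM with CB103. None of the 5 genes not picked for their fall was called, but edgeR called 0 of 12814 genes in this comparison (0%), with 273 at an unadjusted p under 0.05, 27 called by DESeq2 and 0 by limma-voom. CB103 replicate 2 is the library that holds Toledo genes, and the column of replicate 1 differed between the deposited tables.

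The genes around the 7 adaptors were read from 4 lists of textbook members. Of 34 other lymphocyte adaptor and scaffold genes tested, 12 were called lower and 2 higher with NEO2734, and 7 lower and 2 higher with OTX015, with medians of -0.18 and -0.16 on the log2 scale. Among all genes 11.2% were called lower and 9.29% higher with NEO2734, and 6.06% lower and 5.53% higher with OTX015. With the deep libraries alone 6 of the list were called lower and 0 higher with NEO2734, and 0 in either direction with OTX015. DOK3, an inhibitory docking protein of B cells, changed by -1.95 ± 0.29 with NEO2734 (adjusted p = 1.85e-05) and -1.40 ± 0.29 with OTX015 (adjusted p = 0.00167). GRAP, a relative of GRB2, changed by -1.94 ± 0.46 with NEO2734 (adjusted p = 0.00273) and stood at -1.28 ± 0.44 with OTX015, which did not pass (adjusted p = 0.055). GRAP2 and SH3BP2 were also called lower with both compounds, but each had 0 counts in all libraries of at least 1 group, so no fold is given. The 2 called higher with both compounds, named because they were the only ones, were PAG1, a membrane adaptor that recruits the inhibitory kinase CSK (0.78 ± 0.19 with NEO2734 and 0.60 ± 0.19 with OTX015), and CBL, the close relative of CBLB (0.59 ± 0.10 and 0.60 ± 0.11).

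Of 11 antigen receptor and coreceptor genes, 5 were called lower and 0 higher with NEO2734, and 4 and 0 with OTX015 (medians -0.69 and -0.94, the second -0.76 with genes that were empty in a group set at the floor of 3 counts). With NEO2734 the largest were the inhibitory receptors LILRB1 (-2.04 ± 0.49, adjusted p = 0.00312), CD72 (-1.65 ± 0.29, adjusted p = 0.000149), FCGR2B (-1.45 ± 0.26, adjusted p = 0.000149) and CD22 (-1.11 ± 0.21, adjusted p = 0.000246). All 4 are known to dampen B cell signalling. Of 24 kinases and enzymes next to the adaptors, 13 were called lower and 2 higher with NEO2734, and 5 lower and 3 higher with OTX015 (medians -0.66 and -0.46), to be read beside the same shares of all genes. With the deep libraries alone 6 of these kinases and enzymes were called lower and 1 higher with NEO2734 and 0 in either direction with OTX015, and of the receptors 0 were called lower with OTX015. FYN, a SRC family kinase, rose by 2.60 ± 0.45 (adjusted p = 9.18e-05), whereas the RAS activators RASGRP3 (-1.59 ± 0.39) and RASGRP1 (-1.54 ± 0.41) and the phosphatase PTPN22 (-1.48 ± 0.40) fell with NEO2734 at adjusted p of 0.00348, 0.00772 and 0.00709. Of 18 genes further down the pathway, none was called higher with NEO2734 and none in either direction with OTX015 (medians 0.12 with NEO2734 and 0.11 with OTX015). The median over all 12814 genes was -0.024 with NEO2734 and -0.027 with OTX015. The lists were written with earlier results of these data known and are no independent evidence of a direction.

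**Figure D5:**
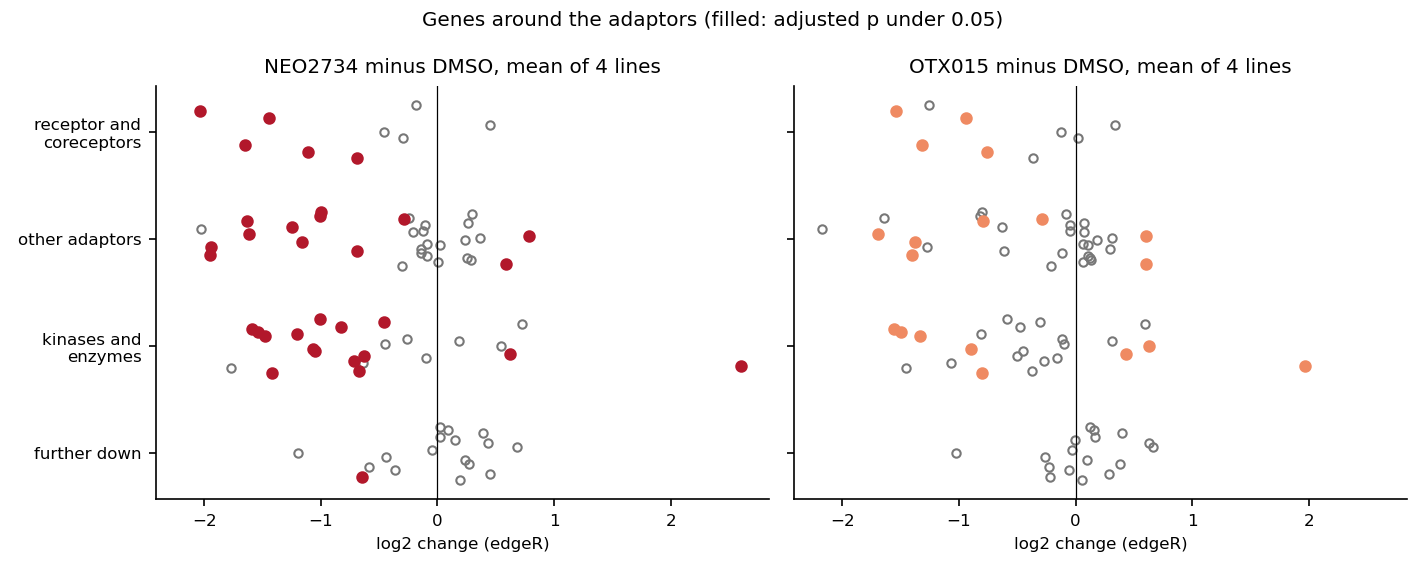
Log2 change of the genes in the 4 lists around the adaptors, mean of 4 lines, with NEO2734 and with OTX015 against DMSO. Each point is a gene, filled where its adjusted p was under 0.05, and genes with no counts in any library of a group are left out. Filled points lie mostly below 0 among the receptors and kinases, and FYN lies at 2.60 with NEO2734.

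Patterns most like those of LAT2 and SASH3 were sought among 10280 genes with a mean of at least 5 CPM, by Pearson r of log2 CPM over group means that share libraries and scaling. Over all 13 group means, where differences between lines weigh most, the genes nearest LAT2 were UBE2E1 (0.969), TDRD3 (0.969), GGCT (0.967), IMPDH1 (0.965) and BTN3A3 (0.962). Those nearest SASH3 were PM20D2 (0.976), SLC19A1 (0.974), HACD3 (0.972), SLAMF6 (0.969) and TRIM65 (0.962), of which SLAMF6 is a receptor of lymphocytes. Over the 12 means with each line's own mean taken out, where the response to the compounds weighs most, the genes nearest LAT2 were MX2 (0.995), SFXN4 (0.994), IQCB1 (0.990), ALKBH8 (0.988) and TSPOAP1-AS1 (0.988). Those nearest SASH3 were IQSEC1 (0.992), SYK (0.992), STAT6 (0.991), ANKLE1 (0.990) and SIT1 (0.986). SYK, the kinase that phosphorylates BLNK, and SIT1, a membrane adaptor, were thus among the 5 nearest to SASH3. Of the other members, PIK3AP1 came closest to both, with r of 0.89 to LAT2 and 0.93 to SASH3 on the centred means, and CBLB was opposite, with -0.65 and -0.60. LAT2 and SASH3 were picked for falling with both compounds, so the r on the centred means describe that choice. Genes that fall with both compounds score high there whatever they do, and a shared function or control was not tested.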

How the data were processed

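RNA had been extracted with Trizol from cells after 6 h of treatment and made into libraries from total RNA with a TruSeq RNA kit, per the labels' protocols. The deposited values are whole-number counts per gene, in 2 tables that were equal in 38 of 39 columns and differed for OCILy10 CB103 replicate 1, and the table of raw counts was used. STAR, edgeR and the build hg38 are listed in the submitters' processing notes, with no versions, while the sources used here do not give the annotation or the strand setting. Of 15808 Ensembl IDs, 15590 had a symbol.

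Groups came from the sample labels. The members and gene lists were chosen with earlier results of these data known. Counts were fitted in 1 model of 13 groups with edgeR 4.0.16 in R 4.3.3 (TMM scaling, filterByExpr, quasi-likelihood F-tests with 26 residual degrees of freedom), which tested 12814 genes. The p-values were adjusted by Benjamini and Hochberg over all of these, with a threshold of 0.05. Means over lines weight each line equally. DESeq2 1.42.0 and limma 3.58.1 (voom) were alternatives, with other scalings, no filter on low counts, a replicate block, deep or shallow libraries alone, the other table, and each library left out in turn. Leaving out the mixed libraries was planned, and leaving out a line and averaging BANK1 over 3 lines were added after seeing the data. A gene counted as private to a line where each of its libraries had over 10 CPM and the 90th percentile over the remaining lines' libraries was below 1 CPM. From each gene list up to 4 called genes with the largest change with NEO2734 are named. The fits were also run on simulated counts, drawn independently for each library with no effect of depth class and no single mixed library. No statement here rests on that run. Promoter sequences were read from RefSeq (GRCh38.p14) with Python 3.11.15, and figures were drawn with matplotlib 3.10.9.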

Additional observations from a re-analysis of the deposited data

How the results depend on the processing

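Counts of called genes moved more than member values. With NEO2734 in the mean of 4 lines 2630 genes were called and with OTX015 1484, against 727 and 62 with the deep libraries alone. With OTX015 the count was 951 with the shallow libraries alone, 2582 with depth class as a covariate and 2421 with the replicate block. Between NEO2734 and OTX015 the 4 called genes became 11 with DESeq2, 2 with DESeq2 size factors in edgeR, 2 with limma-voom, 8 with the replicate block, 7 with the depth covariate and 0 with library totals, no filter on low counts, deep or shallow libraries alone, the 3 mixed libraries left out or the other deposited table (0 to 9 when 1 library was left out). The 2 genes whose NEO2734 response differed between lines became 98 with DESeq2, 1 with DESeq2 size factors, 1 with no filter, 27 with the replicate block, 9 with the depth covariate and 0 with library totals, deep or shallow libraries alone, the mixed libraries left out or the other table (0 to 9 on leaving out 1 library). For the OTX015 response, where 0 were called, the counts were 4 with DESeq2, 3 with the replicate block and 1 with the depth covariate (0 to 6), and for CB103 27, 14 with the block and 16 with the other table, with 0 to 92 on leaving out 1 library, the 92 without CB103 replicate 1. The causes of these shifts were not tested.

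Among the members, LAT2 with OTX015 changed by -1.13 in the deep libraries alone and -1.85 in the shallow ones. The SASH3 difference between NEO2734 and OTX015 was -0.77 with DESeq2 size factors, -0.77 with library totals, -0.75 with no filter, -0.82 with limma-voom, -0.86 in the deep and -0.68 in the shallow libraries, -0.78 without the mixed libraries and -0.76 with the other table, none of them called, with -0.83 to -0.70 on leaving out 1 library. BLNK was not called with NEO2734 in the deep (-0.66) or shallow (-1.02) libraries alone or without Toledo (-0.26). With OTX015 BLNK was not called with limma-voom (-0.62), in the deep (-0.42) or shallow (-0.86) libraries, without the mixed libraries (-0.45), with the other table (-0.70) or without Toledo (-0.22), and leaving out 1 library gave -0.82 to -0.44, the weakest without Toledo DMSO replicate 2. PIK3AP1 with NEO2734 was not called in the deep libraries (-0.62) or without TMD8 (-0.54), with -0.87 to -0.54 on leaving out 1 library. With OTX015 PIK3AP1 was called with DESeq2 (-0.54), the replicate block (-0.54) and the depth covariate (-0.49), with -0.69 to -0.39. BANK1 with OTX015 was not called in the deep libraries (-1.21). CBLB with NEO2734 was not called in the deep libraries (0.27) or without DOHH2 (0.24). With OTX015 CBLB was not called with DESeq2 (0.37), DESeq2 size factors (0.39), limma-voom (0.31), deep (0.15) or shallow (0.48) libraries, the other table (0.40) or without DOHH2 (0.091), with 0.34 to 0.45 on leaving out 1 library. For each of these the cause was not tested.

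Signs turned round in the following values, none of which was called. In the shallow libraries alone the difference between NEO2734 and OTX015 was 0.075 for SASH3 in OCILy10 and 0.025 for LAT2 in TMD8, and leaving out 1 library gave -0.33 to 0.17 for that of LAT2 in OCILy10. In the deep libraries alone the differences between NEO2734 and OTX015 were 0.041 for DAPP1 (-0.15 to 0.018 on leaving out 1 library) and 0.044 for BANK1, the CBLB changes were -0.0046 with NEO2734 in Toledo and -0.053 with OTX015 in OCILy10, and the NEO2734 median of the genes further down the pathway was -0.0021. CBLB with OTX015 in Toledo was -0.0026 with DESeq2, -0.012 with library totals and -0.023 in the deep libraries. For LAT2, OCILy10 minus Toledo with DMSO was 0.025 with DESeq2, 0.025 with its size factors and 0.26 in the shallow libraries (-0.22 to 0.081). For SASH3, DOHH2 minus Toledo was 0.012 with DESeq2, 0.011 with its size factors, 0.0039 with library totals, 0.037 with limma-voom and 0.28 in the shallow libraries (-0.33 to 0.17). For BLNK, DOHH2 minus Toledo was 0.12 with limma-voom, 0.26 with the replicate block, 0.76 in the deep libraries and 0.93 without the mixed libraries (-0.61 to 0.93). Leaving out 1 library also gave ranges across 0 for BLNK in OCILy10 (-0.16 to 0.16 with NEO2734 and -0.27 to 0.073 with OTX015) and for CBLB (-0.051 to 0.24 with NEO2734 in Toledo, and with OTX015 -0.099 to 0.17 in OCILy10, -0.10 to 0.27 in TMD8 and -0.063 to 0.23 in Toledo).

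Equal replicate numbers did not pair the libraries throughout. Deviations of same-numbered libraries from their group means correlated at 0.27 to 0.92 in DOHH2 and 0.35 to 0.92 in TMD8, but at -0.63 to 0.91 in OCILy10 and -0.80 to 0.59 in Toledo, and not every library correlated best with its own number. The replicate block is therefore only an alternative here. With 1000281 to 3420458 counts in 24 of 39 libraries, low genes such as CBLB in DOHH2 rest on few counts, and a call missed in 1 line says little about that line.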
